A study of Rattus norvegicus with 18 samples.

Results

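The miRNAs described here come from 6 neighbouring miRNA genes of the imprinted Dlk1-Dio3 region of rat chromosome 6, namely miR-493, miR-431, miR-433, miR-127, miR-434 and miR-136. They were chosen by name, taking every arm in the count table with at least 10 counts over the 18 libraries, which gave 11 of the 909 entries (763 known miRNAs and 146 predicted candidates), and no row of these names fell under that minimum. The names were chosen with earlier results of these data known, as was a shorter list. That list holds 8 of the 11 and leaves out rno-miR-493-3p, rno-miR-433-5p and rno-miR-127-5p. Small RNA was sequenced from whole gastrocnemius muscle of male Brown Norway rats, 1 library per rat, 6 rats in each of 3 groups. Young AL rats were 6 months old and old AL rats 28 months old, both fed ad libitum (AL). Old CR rats were also 28 months old and had been on caloric restriction (CR) since 2 months of age, receiving 55% of the intake of the AL rats. There were no young CR rats here, so old CR differs from young AL in both age and diet. The comparisons ask how the miRNAs of ageing muscle differ from those of young muscle, and whether CR alters this.

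A miRNA is a short RNA that pairs with messenger RNAs, mainly through its seed near the 5′ end, and lowers their translation or stability. In the Dlk1-Dio3 region the noncoding RNAs and miRNAs are expressed from the chromosome inherited from the mother, while the protein-coding genes, Rtl1 among them, are expressed from the paternal one. The miRNAs encoded opposite Rtl1 are perfectly complementary to its messenger RNA and can direct its cleavage. Rtl1 is needed in the placenta and in developing muscle, and miRNAs of this region are known to be abundant in embryonic and regenerating muscle and to decline as muscle matures. In the RefSeq annotation of GRCr8, miR-431, miR-433, miR-127, miR-434 and miR-136 lie within Rtl1 on the opposite strand in that order, and miR-493 lies outside it, on the Meg3 side.

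Mature sequences of 9 of the 11 entries were found in RefSeq (GRCr8). They are shown because the seed decides which messengers a miRNA can reach. Bases 2 to 8, the seed, are in capitals and the sequences run 5′ to 3′.
rno-miR-493-5p: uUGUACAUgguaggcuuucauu
rno-miR-493-3p: uGAAGGUCuacugugugccag
rno-miR-431: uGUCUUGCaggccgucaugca
rno-miR-433-5p: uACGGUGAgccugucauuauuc
rno-miR-433-3p: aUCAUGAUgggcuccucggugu
rno-miR-127-3p: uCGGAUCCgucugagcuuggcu
rno-miR-434-5p: aGCUCGACucaugguuugaacca
rno-miR-434-3p: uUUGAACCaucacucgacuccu
rno-miR-136-3p: cAUCAUCGucucaaaugagucu

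The other two entries are rno-miR-127-5p and rno-miR-136-5p. The 9 seeds were all different, and none of them was found in another of the 693 mature miRNAs of the RefSeq table, so these neighbouring genes do not form a seed family. A further sequence bears on how the counts can be read, that of rno-miR-3543, which is annotated on the minus strand across the miR-434 gene.
rno-miR-3543: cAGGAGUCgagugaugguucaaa

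All 22 bases of rno-miR-434-3p are complementary to rno-miR-3543. The counts of these entries differed by only 1 to 14 counts per library, or 0.120% to 1.63%. The kit keeps the strand according to the labels, but the strand setting of the counting is not given in sources used here. The values below for rno-miR-434-3p therefore cannot be told apart from those of rno-miR-3543.

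The counts of a library totalled 34940346 to 83110905, of which the miR-1 family took 60.7% to 86.8%, and the 11 entries together took 3450 to 13174 counts. Levels are CPM, the counts divided by the size of the library after correction with TMM factors, which were 0.656 to 2.08. Skeletal muscle miRNAs, among them miR-1, miR-133a, miR-206 and miR-486, summed to 72249 to 185655 CPM in every library. Of the miR-1 family this list holds the entries named miR-1 alone, and not rno-miR-1b, rno-miR-3571 and 1 predicted candidate, so it leaves out most of the family's counts over the 18 libraries. Old AL replicate 8 stood apart. It was the lowest old AL library for all 11 entries (tied at 0 counts for rno-miR-433-5p), and their summed level was 46.8 CPM against 92.0 to 129 in the other old AL libraries. In the same library the leukocyte miRNAs (miR-142, miR-223 and miR-150; 6 entries) summed to 531 CPM, against 104 to 207.6 in the other 17 libraries. Liver miR-122 summed to 0.549 to 39.4 CPM in young AL, 49.4 to 774 in old AL, with 102 to 186 in old CR. The nerve list (miR-9a, miR-124, miR-128 and miR-138; all 10 entries counted in each group) summed to 585 to 1032 CPM in young AL, 403 to 781 in old AL, with 327 to 725 in old CR. This sum does not give the direction of each member. The study reported miR-9a and miR-124 as higher in old CR than in young AL. The part of these other cell types in the results was not tested. In whole muscle, fewer cells that make a miRNA and less of it per cell cannot be told apart.

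The 11 entries differed widely in level. rno-miR-127-3p held 70.5% of their counts with a mean of 75.1 CPM, which ranked 108 of the 909 entries. rno-miR-434-3p held 14.1% and rno-miR-434-5p 7.01%, while each of the other 8 held at most 1.77%. These are shares of sequenced counts, from mature miRNAs of 21 to 23 bases where a sequence was available, and they are not corrected for length. Young AL libraries held 107 to 173 CPM of the 11 together, with a median of 129. Old AL libraries held 46.8 to 129 CPM, with a median of 100.5, and old CR libraries 63.3 to 158 CPM, with a median of 84.7, so that the groups overlapped in the sum, which follows rno-miR-127-3p.

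**Figure D1:**
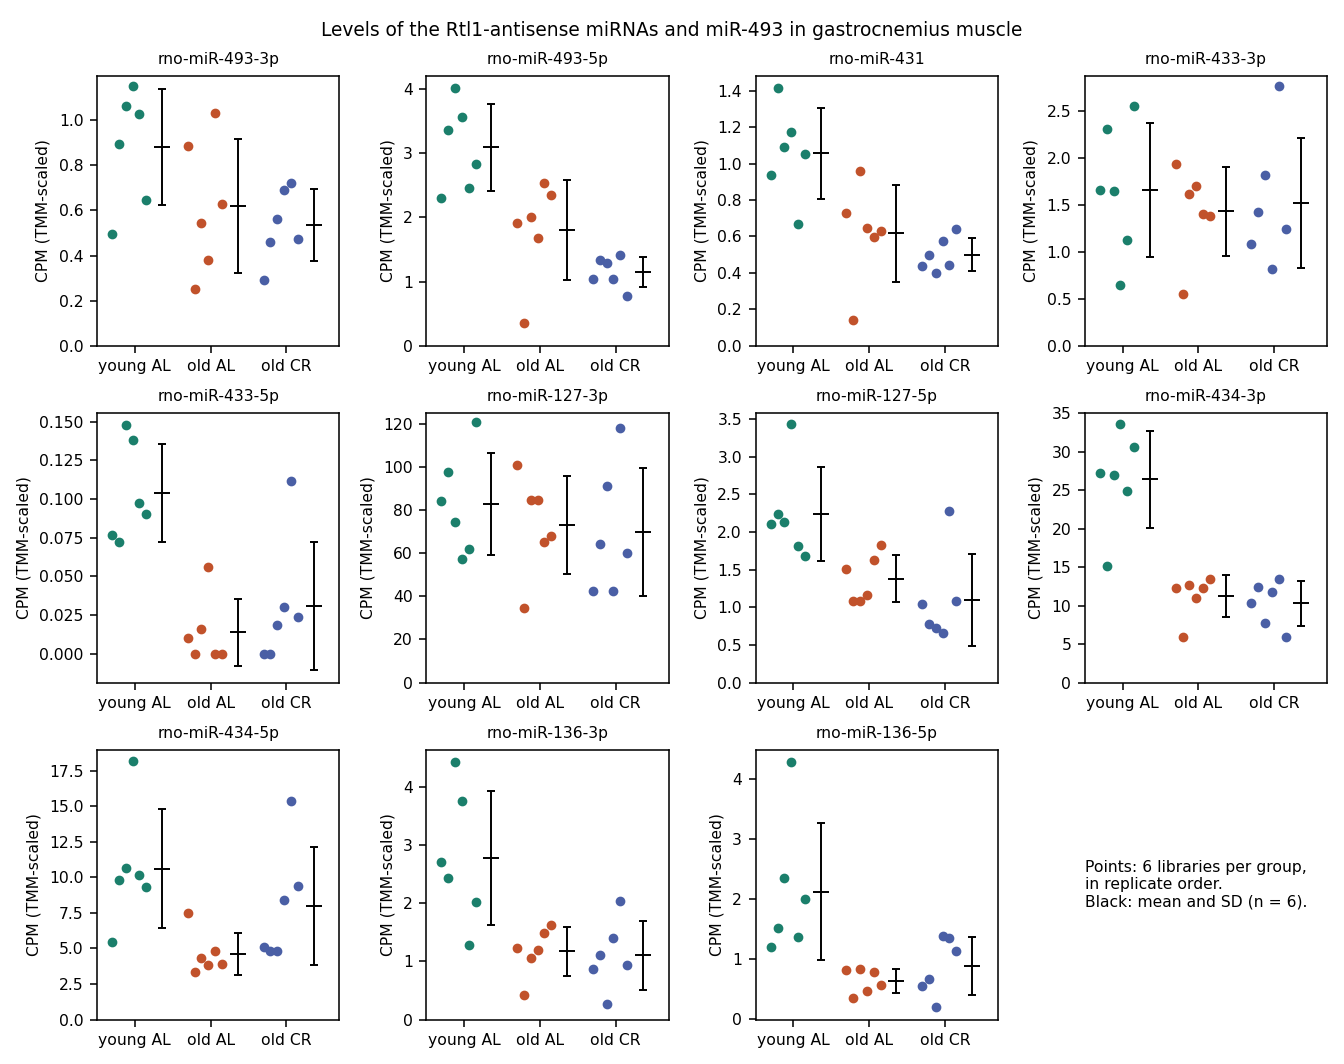
Level of each entry in CPM (TMM-scaled, linear axis) in the 6 libraries of young AL, old AL and old CR; points are libraries in replicate order and black bars are the mean and SD. For rno-miR-434-3p all young AL libraries sit at 15.1 CPM or above and all old ones at 13.4 or below, whereas for rno-miR-127-3p and rno-miR-433-3p the groups overlap.

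In old AL against young AL, rno-miR-136-5p and both arms of miR-434, rno-miR-434-3p and rno-miR-434-5p, fell. They were 3 of the 11 entries called lower by edgeR's quasi-likelihood test (adjusted p at most 0.05 and fold change at least 1.5), while 17 of all 732 entries tested, or 2.32%, were called lower. All 11 fold changes were below 0, as were 318 of the 732 entries tested. The median of the 11 was -0.77 on the log2 scale against 0.06 over all entries tested. The 11 include arm pairs of the same hairpin, so their directions are not independent. The levels of old AL were all under the lowest young AL level for rno-miR-434-3p, rno-miR-136-5p and rno-miR-433-5p, and 2.6% of all entries showed this. rno-miR-433-5p had 33 counts in young AL and 6 in old AL, where 3 libraries were at 0. Old AL alone would not have reached the minimum of 10 counts, so no support is drawn from this entry. DESeq2 called 6 of the 11 lower, adding rno-miR-136-3p, rno-miR-127-5p and rno-miR-433-5p, against 6.56% of all entries. Of the shorter list of 8, edgeR called the same 3. Without old AL replicate 8, 2 were called, rno-miR-434-3p and rno-miR-136-5p. Without young AL replicate 3, or without old AL replicate 12, rno-miR-434-3p was the 1 of the 11 called. For these fits without 1 library, the share of all entries called is not given here.

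In old CR against young AL, rno-miR-493-5p, rno-miR-431, rno-miR-127-5p and rno-miR-434-3p fell. These were 4 of the 11, against 5.21% of the 730 entries tested. Here too all 11 fold changes were below 0, with a median of -1.09 against 0.08 over all entries. The levels of old CR were all under the lowest young AL level for rno-miR-493-5p, rno-miR-431 and rno-miR-434-3p, and again 2.6% of all entries showed this. DESeq2 called 6 of the 11 lower, with rno-miR-136-3p and rno-miR-136-5p added, against 8.22% of all entries. Of the shorter list of 8, edgeR called 3, since rno-miR-127-5p is not in it. Old CR replicate 17 was the highest old CR library for 9 of the 11 entries, and without it 6 were called, with rno-miR-136-3p and rno-miR-433-5p added. The share of all entries called in that fit is not given here. Both comparisons use the same young AL libraries and are therefore not independent of each other. rno-miR-434-3p was the 1 entry called in both.

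In old CR against old AL none of the 11 was called by edgeR or DESeq2, in comparison with 0.272% and 2.58% of the 736 entries tested, and no adjusted p of DESeq2 was given for rno-miR-433-5p. One of the 11 had an unadjusted p under 0.05 by edgeR, rno-miR-434-5p, against 12% of all entries. The fold changes ran from -0.65 for rno-miR-493-5p to 1.003 for rno-miR-433-5p on the log2 scale, with a median of -0.09 against 0.01 over all entries. No entry had every old CR library below every old AL library, which 0.136% of all entries showed.

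**Figure D2:**
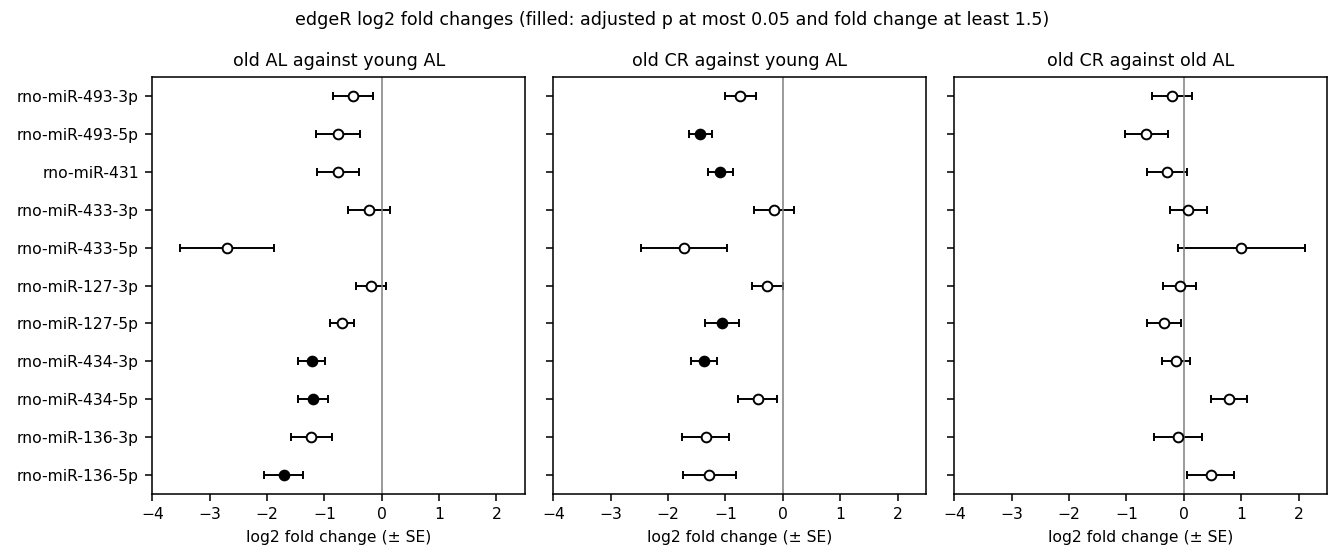
edgeR log2 fold change of each entry with its SE in old AL against young AL, old CR against young AL and old CR against old AL, 6 libraries per group; filled points were called. All points of the first and second panels lie below 0, with 3 and 4 of them filled, and none is filled in the third.

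miR-434 (chr6:134330402-134330482, plus strand, GRCr8) lies opposite Rtl1, and its 3p arm has been described in ageing rodent muscle as acting against apoptosis. rno-miR-434-3p measured 15.1 CPM in the lowest young AL library, 27.1 at the median and 33.6 in the highest. In old AL it measured 5.89, 12.3 and 13.4 CPM, and in old CR 5.96, 11.1 and 13.4 CPM, in the same order. Young AL did not overlap with either old group, and the old groups covered nearly the same range. The mean of 26.4 ± 6.33 CPM (SD, n = 6) in young AL compared with 11.3 ± 2.75 in old AL, and old CR averaged 10.3 ± 2.89. The log2 fold change from young AL was -1.22 (SE 0.235, adjusted p = 0.0213 by edgeR) in old AL and -1.37 (SE 0.228, adjusted p = 0.00377 by edgeR) in old CR. Leaving out any 1 library kept it called in both, with an adjusted p by edgeR of up to 0.0498 in old AL and 0.0107 in old CR. With library totals in place of TMM factors it was no longer called in old AL (adjusted p = 0.171 by edgeR). Between the old groups it differed by -0.13 on the log2 scale (SE 0.242), within the spread of the libraries. As a share of the rno-miR-127-3p counts of the same library, which needs no scaling between libraries, rno-miR-434-3p ranged from 15.5% to 58.8% in young AL with a median of 34.3%. It ranged from 12.1% to 19.7% in old AL (median 16.1) and, in old CR, from 8.55% to 27.8% (median 15.4). On this measure the groups overlapped, the old medians again lying below the young one.

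rno-miR-434-5p is the other arm of the same hairpin. It measured 5.42 CPM in the lowest young AL library, 9.98 at the median and 18.2 in the highest. In old AL the corresponding levels were 3.31, 4.12 and 7.50 CPM, with 5 of 6 libraries below the whole young AL range, and in old CR they were 4.80, 6.74 and 15.3 CPM, with 3 of 6 below it. Old AL was lower than young AL by a log2 fold change of -1.20 (SE 0.265, adjusted p = 0.0353 by edgeR). This call was lost in 9 of the 12 fits that left out 1 library (adjusted p up to 0.0800 by edgeR). In old CR the log2 fold change from young AL was -0.44 (SE 0.336, adjusted p = 0.479 by edgeR), and from old AL it was 0.79 (SE 0.310, unadjusted p = 0.0262 and adjusted p = 0.392 by edgeR). Old CR was thus not distinguishable from either group.

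miR-136 (chr6:134331335-134331416, plus strand, GRCr8) is the last of the genes opposite Rtl1. rno-miR-136-5p measured 1.21, 1.76 and 4.28 CPM in the lowest, median and highest young AL library. In old AL it measured 0.348, 0.678 and 0.831 CPM, entirely below young AL, and in old CR 0.200, 0.901 and 1.38 CPM, with 4 of 6 libraries below the young AL range. It fell in old AL, with a log2 fold change of -1.71 (SE 0.340, adjusted p = 0.0232 by edgeR). The call was lost without young AL replicate 3 or without old AL replicate 12 (adjusted p up to 0.0600 by edgeR), and with library totals in place of TMM factors (-1.61, adjusted p = 0.171 by edgeR). In old CR the log2 fold change of -1.28 (SE 0.454, adjusted p = 0.0991 by edgeR) was not called, and the test of old CR against old AL gave 0.47 (SE 0.417, adjusted p = 0.704 by edgeR).

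rno-miR-136-3p measured 1.28, 2.57 and 4.43 CPM in the lowest, median and highest young AL library, 0.420, 1.22 and 1.63 in old AL and 0.273, 1.02 and 2.04 in old CR. In each old group 4 of 6 libraries lay below the young AL range. The log2 fold change was -1.23 in old AL (SE 0.355, adjusted p = 0.0879 by edgeR) and -1.35 in old CR (SE 0.414, adjusted p = 0.0621 by edgeR). Neither was called by edgeR, and both were called by DESeq2 (adjusted p = 0.00840 and 0.00953).

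miR-127 (chr6:134328454-134328550, plus strand, GRCr8) is the most abundant of the group and is known to promote differentiation of muscle satellite cells. rno-miR-127-3p measured 57.2, 79.2 and 121 CPM in the lowest, median and highest young AL library, 34.5, 76.3 and 101 in old AL and 42.5, 62.1 and 118 in old CR. The ranges overlapped almost fully. The log2 fold change from young AL was -0.19 in old AL (SE 0.263, adjusted p = 0.748 by edgeR) and -0.27 in old CR (SE 0.267, adjusted p = 0.616 by edgeR). The entry that supplies most of the counts was therefore not shown to differ between the groups. Without old AL replicate 8 the old AL value came to -0.04 (SE 0.209).

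rno-miR-127-5p, the scarcer arm, measured 1.69, 2.12 and 3.43 CPM in the lowest, median and highest young AL library. In old AL it measured 1.08, 1.33 and 1.82 CPM and in old CR 0.662, 0.910 and 2.28 CPM. In each old group 5 of 6 libraries were below the young AL range. The log2 fold change was -0.69 in old AL (SE 0.208, adjusted p = 0.0948 by edgeR) and -1.06 in old CR (SE 0.302, adjusted p = 0.0448 by edgeR). The call in old CR was lost in 10 of the 12 fits without 1 library (adjusted p up to 0.105 by edgeR).

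miR-431 (chr6:134326449-134326562, plus strand, GRCr8) is known to act on Pax7, the transcription factor of muscle satellite cells, and has a single entry in the count table, from the 5′ side of its hairpin. It measured 0.667, 1.07 and 1.42 CPM in the lowest, median and highest young AL library. In old AL it measured 0.144, 0.637 and 0.959 CPM, with 4 of 6 libraries below the young AL range, and in old CR 0.400, 0.472 and 0.639 CPM, entirely below it. The log2 fold change was -0.77 in old AL (SE 0.361, adjusted p = 0.226 by edgeR), which was not called, and -1.09 in old CR (SE 0.215, adjusted p = 0.00854 by edgeR). The call in old CR held in every fit without 1 library (adjusted p up to 0.0243 by edgeR). The old groups differed from each other by -0.29 on the log2 scale (SE 0.351), and by -0.50 (SE 0.206, adjusted p = 0.314 by edgeR) without old AL replicate 8, and neither passed the test.

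miR-493 (chr6:134314731-134314814, plus strand, GRCr8) is the member outside Rtl1. rno-miR-493-5p measured 2.30, 3.09 and 4.02 CPM in the lowest, median and highest young AL library, 0.348, 1.95 and 2.53 in old AL and 0.782, 1.17 and 1.41 in old CR. The old CR libraries all lay below young AL, and 4 of the 6 old AL libraries did. Old CR held 1.15 ± 0.236 CPM (SD, n = 6) on average, against 3.09 ± 0.671 in young AL, a log2 fold change of -1.44 (SE 0.200, adjusted p = 0.00312 by edgeR) that stayed called in every fit without 1 library. In old AL the fold change was -0.76 (SE 0.375, adjusted p = 0.243 by edgeR). Old AL replicate 8 widened that group: without it old AL averaged 2.09 ± 0.347 CPM (SD, n = 5), the log2 fold change from young AL was -0.54 (SE 0.190, adjusted p = 0.140 by edgeR) and that of old CR against old AL was -0.87 (SE 0.192, adjusted p = 0.123 by edgeR), which with all libraries was -0.65 (SE 0.371, adjusted p = 0.484 by edgeR). A difference between the old groups was thus not called either way.

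rno-miR-493-3p measured 0.498, 0.962 and 1.15 CPM in the lowest, median and highest young AL library, 0.252, 0.586 and 1.03 in old AL and 0.293, 0.519 and 0.724 in old CR. The groups overlapped, with 2 of 6 old AL and 3 of 6 old CR libraries below young AL. The log2 fold changes of -0.50 in old AL (SE 0.343) and -0.74 in old CR (SE 0.278, adjusted p = 0.114 by edgeR) were not called.

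miR-433 (chr6:134327358-134327450, plus strand, GRCr8) gave an arm with little difference and an arm near the limit of detection. rno-miR-433-3p measured 0.645, 1.66 and 2.56 CPM in the lowest, median and highest young AL library, 0.552, 1.51 and 1.94 in old AL and 0.813, 1.33 and 2.77 in old CR. The groups overlapped throughout. The log2 fold change was -0.22 in old AL (SE 0.364) and -0.15 in old CR (SE 0.353), the latter turning to 0.03 without young AL replicates 1 and 2. Without old AL replicate 8 the old AL value was -0.05 (SE 0.314). As a share of rno-miR-127-3p counts its medians were 2.05% in young AL, 1.97% in old AL, with 2.14% in old CR.

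rno-miR-433-5p had 33 counts over the 6 young AL libraries, 6 over old AL and 11 over old CR. It was counted in every young AL library and was at 0 in 3 old AL and 2 old CR libraries, where a count of 0 allows up to 3 counts, or 0.0360 to 0.0660 CPM in these 5 libraries, for counting error only. Every old AL library lay below young AL in CPM. The raw counts met, with 4 counts each in old AL replicate 10 and young AL replicate 1. The log2 fold changes of -2.70 in old AL (SE 0.819, adjusted p = 0.0948 by edgeR) and -1.73 in old CR (SE 0.752, adjusted p = 0.175 by edgeR) were not called. The old AL value was called by DESeq2 (adjusted p = 0.0124), and by edgeR with known miRNAs only (adjusted p = 0.0203) or without old AL replicate 10 (-3.83, adjusted p = 0.0302). The old CR value was called by edgeR without old CR replicate 17 (-2.60, adjusted p = 0.0429).

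The arms of 1 hairpin can be compared within a library, without scaling between libraries. The ratio of 5p to 3p counts of miR-434 was 0.199 to 0.649 in young AL, 0.293 to 0.613 in old AL, with 0.387 to 1.58 in old CR, highest in old CR replicate 18. Its mean log2 value was -1.36 ± 0.606 in young AL, -1.29 ± 0.429 in old AL, with -0.45 ± 0.756 in old CR (SD, n = 6, 0.5 added to each count). The exact two-sided permutation test gave a difference of 0.91 for old CR against young AL (p = 0.0498) and of 0.84 for old CR against old AL (p = 0.0368), both with an adjusted p of 0.149 over the 6 planned tests. The old CR ratios were therefore higher on average, but not beyond the correction. The 3p count may hold reads of rno-miR-3543, as above. For miR-136 the mean log2 ratio was -0.41 in young AL, -0.82 in old AL, with -0.35 in old CR, and no exact test reached an unadjusted p of 0.05.

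The ratios of miR-127 and miR-493 were added after the counts were seen, making 12 tests. For miR-493 the mean log2 ratio was 1.83 ± 0.345 in young AL and 1.12 ± 0.469 in old CR (SD, n = 6, exact permutation p = 0.0173, adjusted p = 0.149). For miR-127 it was -5.19 in young AL and -6.02 in old CR (exact permutation p = 0.0390, adjusted p = 0.149). None of the 12 passed the correction, and the smallest p that 6 against 6 libraries allow is 0.00216.

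**Figure D3:**
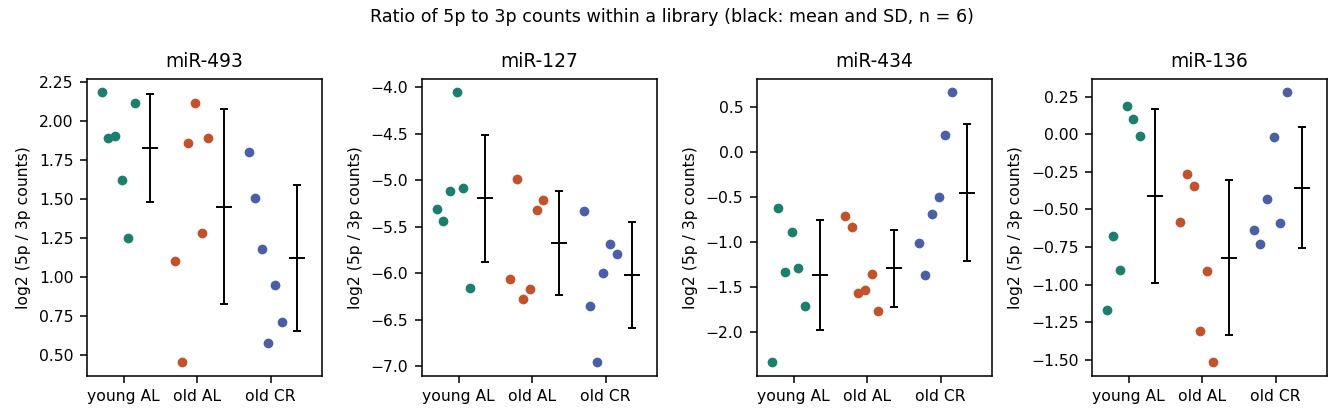
Log2 ratio of 5p to 3p counts within each library for miR-493, miR-127, miR-434 and miR-136, with 0.5 added to each count; points are the 6 libraries per group and black bars the mean and SD. The groups overlap in every panel, and 2 old CR libraries of miR-434 lie above 0, where the 5p count exceeds the 3p count.

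The remaining miRNAs of the region were taken from fixed lists. Of the close neighbours (miR-337, miR-370, miR-540, miR-665, miR-673, miR-770, miR-341, miR-1188 and miR-3071), none of the 11 entries tested in old AL was called and 9 had fold changes below 0, with a median of -0.59. In old CR 2 of 12 were called lower, rno-miR-337-5p (log2 fold change -1.27, SE 0.219, adjusted p = 0.00472 by edgeR) and rno-miR-337-3p (-2.06, SE 0.515, adjusted p = 0.0279 by edgeR), and the median was -0.71. miR-337 is the gene next to miR-493 in the annotation. Of the large miR-379 to miR-410 cluster further along, 5 of 45 entries were called lower in old AL (median -0.60), with rno-miR-369-5p, rno-miR-376b-5p and rno-miR-539-5p at the lowest p, and 10 of 47 in old CR (median -0.65), with rno-miR-1193-3p, rno-miR-539-5p and rno-miR-329-3p at the lowest p. No entry of either list was called higher than in young AL, and none was called between the old groups. Over all entries tested, 17 of 732 were called lower in old AL and 7 higher, 318 had fold changes below 0 and the median was 0.06. In old CR, 38 of 730 were called lower and 30 higher, with a median of 0.08. Between the old groups 2 of 736 were called. Old AL replicate 8 was the lowest library for these lists too, with summed levels of 3.06 CPM against 8.94 to 12.1 in the other old AL libraries for the neighbours, and 32.8 against 63.8 to 79.3 CPM for the cluster.

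The entries whose levels over the 18 libraries most resembled the mean standardised log2 level of the 11 were ranked by Spearman correlation among 359 known miRNAs with at least 0.5 CPM on average. The points share their scaling factors and the differences between groups, so the values are a description. rno-miR-411-5p came first (0.932), followed at 0.907 by rno-miR-369-5p, whose 1313 counts are nearly those of rno-miR-3578 (1306 counts, also 0.907), rno-miR-409a-5p (0.874), rno-miR-369-3p (0.851), rno-miR-341 (0.839), rno-miR-379-5p (0.827), rno-miR-300-3p (0.822), rno-miR-495 (0.806) and rno-miR-329-3p (0.783). Of these 10, 7 belong to the miR-379 to miR-410 list and 1 to the neighbours. The other two are rno-miR-3578, which has nearly the counts of rno-miR-369-5p of that list, and rno-miR-409a-5p, which falls outside the list by name alone, since the list holds miR-409 without a letter.

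Because the miR-1 family takes most of each library, the scaling of the libraries was examined. With library totals in place of TMM factors the median of all entries moved from 0.06 to 0.23 in old AL against young AL and from 0.08 to -0.05 in old CR against young AL. All 11 entries stayed below 0 and below the median of all entries in both comparisons under all 6 scalings. In old AL against young AL the median of the 11 relative to all entries was -0.83 with TMM factors and -0.97 with library totals, where none of the 11 was called. In old CR against young AL it was -1.16 and -1.13, with 4 and 3 called. How many of all entries were called with library totals is not given here.

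**Figure D4:**
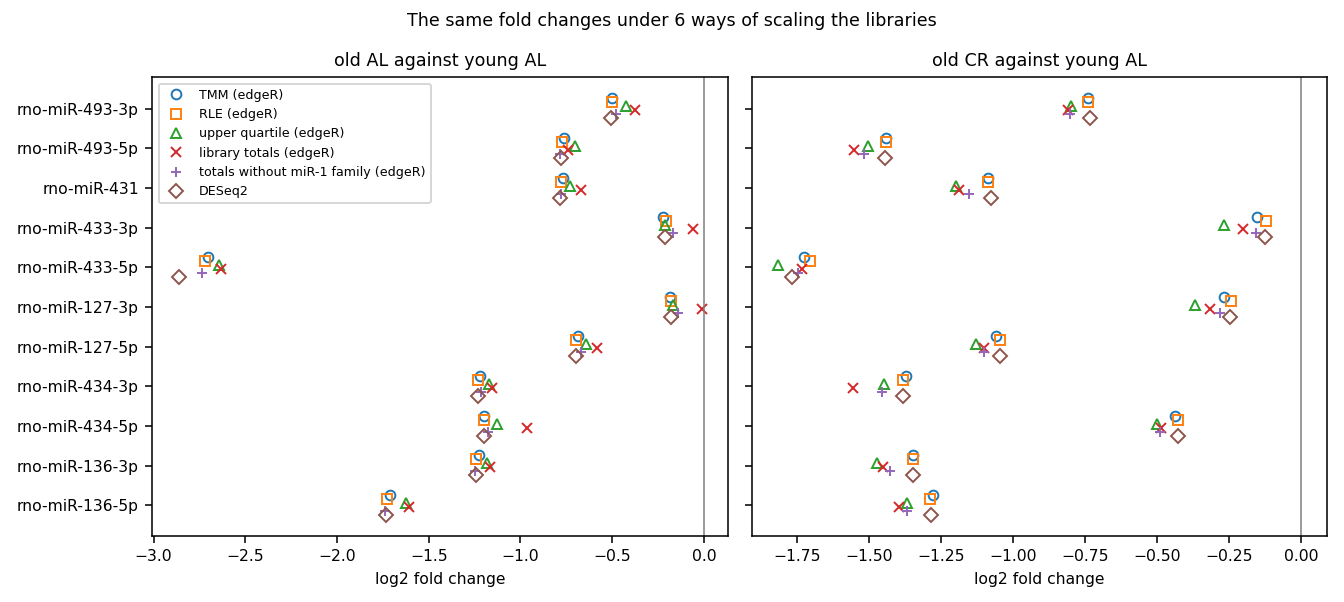
Log2 fold change of each entry in old AL against young AL and old CR against young AL under 6 ways of scaling the libraries (edgeR with TMM, RLE or upper-quartile factors, library totals, or totals without the miR-1 family, and DESeq2). All symbols lie below 0, and rno-miR-127-3p and rno-miR-433-3p come closest to it.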

How the data were processed

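Small RNA libraries of gastrocnemius muscle from 18 rats, 6 each of young AL, old AL and old CR, were analysed. The authors removed adapters (cutadapt) and trimmed by quality (Sickle), kept reads of at least 12 nt, and found known and candidate miRNAs with miRDeep2. They deposited a table of raw counts per miRNA and library, which is the unit used here. The submitters' processing notes name cutadapt 1.2.1, Bowtie2 2.4.0 and the build Rnor_6.0. For the miRBase release, the strand setting and reads with several matches, the choices are not given in sources used here. All 18 columns were matched to samples, leaving 0 unused. Gene order, coordinates and mature sequences come from RefSeq tables of GRCr8 and were joined by name, with 686 of the 763 known entries matched to a mature sequence. No coordinate was taken from the counts.

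Counts were tested with edgeR 4.0.16 in R 4.3.3, using TMM factors and the quasi-likelihood test with robust estimation, fitting the 12 libraries of each pair of groups on their own. The test covered entries reaching 10 counts over those libraries, with Benjamini-Hochberg adjustment across every entry tested. Calls required an adjusted p no higher than 0.05 together with a change of 1.5-fold or more. All tests are two-sided. SEs of log2 fold changes were obtained by dividing the absolute value by the square root of F. DESeq2 1.42.0 with its defaults was an alternative, as were other scalings and filters, a single fit, known miRNAs only, entries with shared counts (differing by up to 10% or 2 counts) entered once, and each library left out. Young AL replicates 1 and 2 were also left out together. Their column labels carry numbers after those of all other libraries. Arm ratios were compared with an exact permutation test over the 924 arrangements of 6 against 6 libraries. CPM values were TMM-scaled over all 18 libraries. The edgeR and DESeq2 fits were also run on counts simulated for old AL against young AL, each entry drawn on its own. The result of that run is not given here. It does not cover entries that move together or an outlying library. The p-values weigh a difference between groups against the spread between libraries. With 1 library per rat, that spread holds differences between rats and between library preparations together. Library totals of 34940346 to 83110905 counts set the precision, and PCR copies cannot be removed without molecular identifiers, so that counting limits cover counting error alone.

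The members and lists were chosen with earlier results of these data known. The plan named 8 members, while the selection rule gives 11, and all 11 are reported with the count for the 8 beside them. Named are the members, rno-miR-3543, entries sharing a seed with a member, the 10 known entries most like the members, and at most the 3 called entries of lowest p per direction and list. Other lists were markers of muscle, nerve, blood cells, liver, endothelium and fibroblasts. Their summed levels that the report does not give were, in CPM from the lowest to the highest library, 3.43 to 9.77 in young AL, 6.72 to 11.8 in old AL and 3.47 to 9.50 in old CR for the erythroid list (miR-451 and miR-144), 4713 to 8048, 3818 to 7273 and 3961 to 6808 for miR-126a of endothelium, and 1035 to 1633, 1157 to 1628 and 1130 to 2226 for the fibroblast list (miR-199a and miR-214).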

Additional observations from a re-analysis of the deposited data

Results flagged for a closer look

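A check for a single outlying library in each group of 6 was made on 45 groups of values, 33 of member levels and 12 of arm ratios. It marked 5 of them, where chance marks about 5% of groups, and all 5 were the lowest value of old AL replicate 8. The levels of the members move together between libraries, so the 5 are not independent. In that library rno-miR-493-5p measured 0.348 CPM, rno-miR-431 0.144 CPM, rno-miR-433-3p 0.552 CPM, rno-miR-434-3p 5.89 CPM and rno-miR-136-3p 0.420 CPM. On log2 CPM, the gap to the next library divided by the range of the group was 0.789, 0.744, 0.733, 0.764 and 0.679 in that order. Each was past the critical value of Dixon's test. The check was not made on CPM itself, where low values lie closer together. The summed leukocyte level of 531 CPM in the same library is given in the report, and its part in these values was not tested. Without this library old AL averaged 12.3 ± 0.864 CPM of rno-miR-434-3p and 0.711 ± 0.147 CPM of rno-miR-431 (SD, n = 5).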

How the results depend on the processing

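Each library came from a different rat and the labels give no pairing of rats, so no paired analysis was made. The number of the 11 members called in old AL against young AL, 3, became 0 with library totals, 6 with DESeq2 and 5 with known miRNAs only, and was 1 to 3 without 1 library, the lowest when old AL replicate 12 or young AL replicate 3 was left out. In old CR against young AL the number, 4, was 3 to 6 without 1 library (6 without old CR replicate 17) and 3 to 6 under the other alternatives, and in old CR against old AL it stayed at 0 in all of them. Apart from DESeq2, the share of all entries called under each alternative is not given here, so these numbers describe the members alone. The calls of rno-miR-431, rno-miR-493-5p and rno-miR-434-3p in old CR against young AL were lost under no alternative tried. That of rno-miR-127-5p in old CR was also lost with RLE factors (adjusted p = 0.0612 by edgeR), library totals (0.107), totals without the miR-1 family (0.0742), no filter (0.0517) and without young AL replicates 1 and 2 (0.151), those of rno-miR-434-3p and rno-miR-136-5p in old AL with library totals (0.171 each), and that of rno-miR-434-5p in old AL with library totals (0.311), totals without the miR-1 family (0.0877) and shared counts entered once (0.0520). The cause of these changes was not tested. Directions turned only where the reported value was not called. For rno-miR-433-3p old CR against young AL was 0.026 without young AL replicates 1 and 2 and -0.38 to 0.0044 without 1 library, and old CR against old AL was -0.053 with upper-quartile factors, -0.14 with library totals and -0.15 to 0.20 without 1 library. Old CR against old AL also turned without 1 library for rno-miR-127-3p (-0.26 to 0.029) and rno-miR-136-3p (-0.33 to 0.12). The miR-136 arm ratio in old CR against young AL was -0.20 without young AL replicates 1 and 2 and -0.10 to 0.18 without 1 library, and that of miR-434 in old AL against young AL was -0.12 to 0.22. Depth limits rno-miR-433-5p above all, with 50 counts in the 18 libraries. filterByExpr dropped this entry and so tested 10 members.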
